A study of Homo sapiens with 3 samples.

Results

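The genes of polyamine synthesis and their regulators were examined in RNA-seq of PC3 cells, an androgen-independent human prostate cancer cell line. They were chosen by name and comprised 9 genes, the synthesis enzymes ODC1, AMD1, SRM and SMS, the catabolic enzymes SAT1 and SMOX, and the regulators of ODC1 named AZIN1, OAZ1 and OAZ2. Each was listed once among the 59719 gene names of the deposited table, and all 9 were among the 13637 names whose mean over the libraries reached 1 TPM, called tested genes here. TPM is a length-corrected share of all transcripts in a library. It keeps no trace of the number of reads, so the depth is unknown. There was 1 library of cells expressing shCON, the vector control, 1 of cells expressing shUSP16#1 and 1 of cells expressing shUSP16#2, both short hairpin RNAs against the deubiquitinase USP16. All 3 libraries came from PC3 cells, and the labels give no treatment beyond the hairpin. The shCON sample is described in the labels as RFP. The study cloned its hairpins into pLKO.1, selected stable PC3 cells with puromycin and used lentivirus for its xenograft cells. Its text does not say how the sequenced cells were made. With 1 library per condition, no difference below has a replicate check and no test across samples exists.

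The targeted gene was read first as a check of the labels. USP16 stood at 19.9 TPM in shCON, against 3.5 TPM with shUSP16#1 and 1.08 TPM with shUSP16#2, which is 17.6% and 5.42% of the control. The epithelial markers KRT8, KRT18, KRT19, EPCAM and CDH1 summed to between 2454 and 2676 TPM in the 3 libraries, though not evenly. KRT19 stood at 507, 838 and 958 TPM in shCON, shUSP16#1 and shUSP16#2, while EPCAM stood at 274, 166 and 136 TPM. The prostate luminal genes KLK3 and KLK2 were listed at 0 in every library, and the 5 luminal markers summed to at most 5.1 TPM. The 5 leukocyte markers summed to at most 1.07 TPM and the 3 endothelial markers to at most 1.39 TPM. The 4 stromal markers summed to 4.34 TPM in shCON, against 11.2 TPM with shUSP16#1 and 4.97 TPM with shUSP16#2, nearly all of it COL1A1 at 4.19, 10.7 and 4.78 TPM, with DCN listed at 0. The part of these markers in the results was not tested. In these bulk libraries, fewer cells of a type and less RNA per cell cannot be told apart.

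Polyamines are small positively charged molecules that bind nucleic acids and are needed for growth. ODC1, ornithine decarboxylase, makes putrescine from ornithine and is a rate-limiting step of the pathway. AMD1 makes decarboxylated S-adenosylmethionine, the donor of the aminopropyl groups that SRM and SMS add to form spermidine and spermine. SAT1 acetylates spermidine and spermine for export or oxidation, and SMOX oxidises spermine directly. Antizymes such as OAZ1 and OAZ2 bind ODC1 and deliver it to the proteasome, and AZIN1, an ODC1-like protein without decarboxylase activity, sequesters the antizymes. The prostate is known for its very high polyamine output, and ODC1 is a textbook target of MYC through E-boxes.

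The E-box CACGTG was sought in the RefSeq promoter windows of GRCh38.p14, which run from 250 bases before to 50 bases after each start. The motif reads the same on both strands, so each occurrence was counted once. It was present in 7.26% of all 35116 windows and in at least 1 window of 8.77% of the 27305 genes with one. Of the members, 7 had a window and 2 of them, ODC1 and SRM, held the motif. AZIN1 and SMOX had no window and were not searched. The stretches are shown because these are the E-boxes of a rate-limiting enzyme and of the only member in the study's c-Myc signature list, with the motif in capitals, 5′ to 3′ on the gene's strand.
ODC1, chr2:10447984-10448059, minus strand: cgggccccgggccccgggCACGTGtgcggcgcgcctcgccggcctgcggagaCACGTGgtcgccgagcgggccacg
SRM, chr1:11060194-11060235, minus strand: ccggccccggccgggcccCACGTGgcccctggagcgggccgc
The first ODC1 motif began 29 bases before a RefSeq start and the second at base 5 after it. Both lie in an intron of 1 of the 3 protein-coding ODC1 transcripts of GENCODE release 29 and outside the other 2. The SRM motif lies outside all 4 protein-coding SRM transcripts. A match of these letters is a description and not a measurement of binding.

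The hairpins are shown because every change below is read from cells that carry them. Each line gives the sense sequence, and the capitals mark the bases that pair with the seed of the antisense strand, its bases 2 to 8.
shUSP16#1: gccagaagaaatcATGTTTAt
shUSP16#2: cggtgatattccaCAAGATTt
All 21 bases of each were found in the longest transcript of USP16. In the longest transcripts of the members, the best ungapped match held 11 to 14 of the 21 bases, and the longest exact run was 6 to 11 bases. The seed match of shUSP16#1 occurred 1 time in AMD1, 3 times in AZIN1 and 1 time in OAZ2, and in no other member. It occurred in 26.8% of the 13296 tested genes with a transcript in the annotation. The seed match of shUSP16#2 occurred in 22.9% of these genes and in none of the 9 members. The part of such matches in the changes was not tested.

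OAZ1 was the most abundant of the polyamine genes in every library. In shCON, OAZ1 stood at 1678 TPM, followed by ODC1 at 351 TPM, SRM at 174 TPM and SMS at 164 TPM. OAZ2, AZIN1 and SAT1 came next, at 127, 123 and 115 TPM, and AMD1 at 43.2 TPM and SMOX at 37.8 TPM were lowest. Under shUSP16#1, SAT1 stood next after SRM and SMOX passed AZIN1 and AMD1, which left AMD1 lowest. Under shUSP16#2, SRM at 140.1 TPM and ODC1 at 139 TPM were nearly level, as were AZIN1 at 52.5 TPM and SMOX at 52 TPM. With no spread known, the order of such neighbours cannot be fixed.

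**Figure D1:**
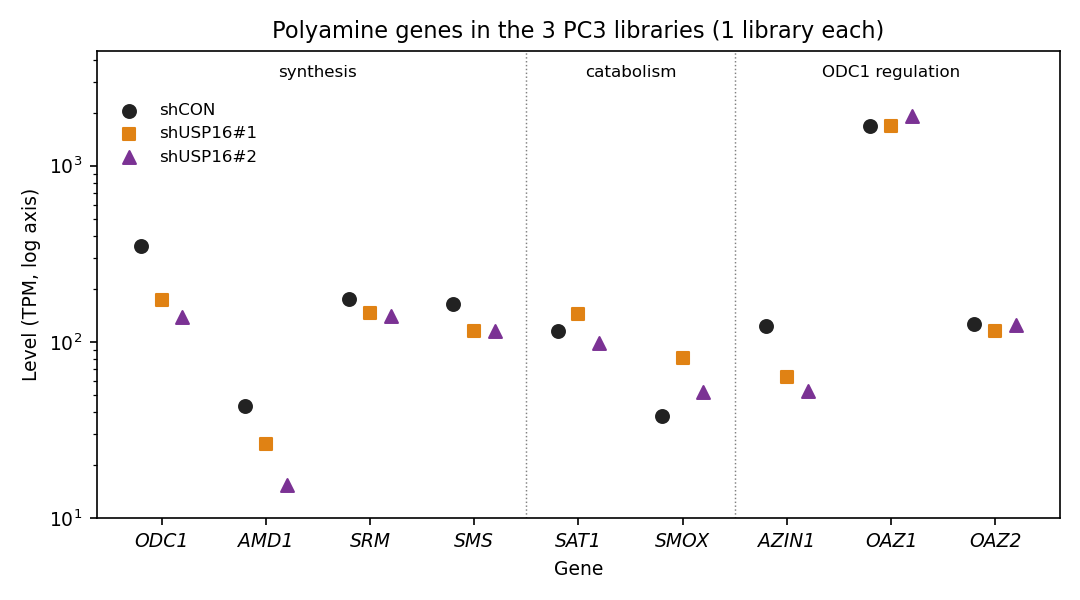
Level of each polyamine gene in TPM (vertical log axis) in shCON (circle), shUSP16#1 (square) and shUSP16#2 (triangle), 1 library each, grouped by role. ODC1 falls from 351 TPM in shCON to 172 and 139 TPM, while OAZ1 stays between 1678 and 1916 TPM.

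Changes are differences of log2(TPM + 1) from shCON, and this scale makes changes of low genes look smaller than they are. A gene was said to have fallen or risen where it changed at least 1.5-fold on this scale in the same direction under both hairpins. Both changes share the 1 shCON library, so the pair is not independent. By this rule 20.8% of all tested genes fell and 4.05% rose. Of the 9 polyamine genes, 3 fell (ODC1, AMD1 and AZIN1), a share of 33.3%, and 0 rose. With shUSP16#1 alone, 3 members were lower where 23.2% of the tested genes were, and 1 was higher where 8.73% were. With shUSP16#2 alone, 3 members were lower where 38.5% of the tested genes were, and 0 were higher where 7.33% were. At 2-fold under both hairpins, 4.6% of the tested genes were lower and 1 member was, ODC1. Under shUSP16#1 the median change was -0.26 over the members and -0.17 over the tested genes, and under shUSP16#2 it was -0.31 and -0.37. Their share and medians lay near the background, and nothing particular to the group is read from them.

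When each change was centred on the median over all tested genes, 11.2% of them fell and 9.74% rose under both hairpins. On that scale 2 members fell, ODC1 and AZIN1, and 1 rose, SMOX. AMD1 was not among them, at -0.52 and -1.07. The values below are as deposited unless called centred.

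**Figure D2:**
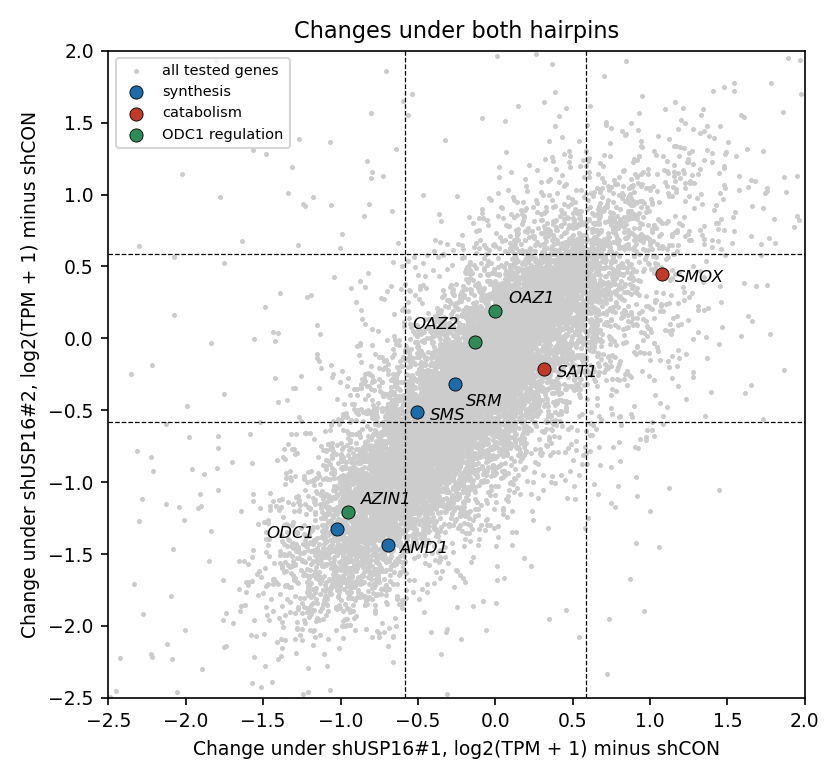
Change under shUSP16#1 (horizontal axis) against change under shUSP16#2 (vertical axis), each as log2(TPM + 1) minus the same shCON library, for the tested genes (grey) and the 9 polyamine genes coloured by role. ODC1, AZIN1 and AMD1 lie beyond the dashed 1.5-fold lines at the lower left, SMOX lies to the right, and 250 tested genes fall outside the axes.

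ODC1 (ENSG00000115758, GRCh38 chromosome 2, 10439968 to 10448504, minus strand) stood at 351 TPM in shCON, against 172 TPM with shUSP16#1 and 139 TPM with shUSP16#2. Both hairpin libraries lay below the control, at 49.1% and 39.7% of it. The changes were -1.02 and -1.33, and the centred ones -0.85 and -0.96. Lower changes were shown by 5.38% and 8.75% of the tested genes. The divergent transcript beside it, ODC1-DT, was at 1.02, 0.69 and 0.56 TPM and under the minimum for testing.

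AMD1 (ENSG00000123505, chromosome 6, 110874770 to 110895713, plus strand) stood at 43.2 TPM in shCON, against 26.3 TPM with shUSP16#1 and 15.3 TPM with shUSP16#2. The changes were -0.70 and -1.44, so the level under shUSP16#2 was the lower of the hairpin libraries, at 35.4% of the control against 60.9%. Lower changes were shown by 17.0% and 6.42% of the tested genes. The AMD1 pseudogenes AMD1P1 and AMD1P4 were listed at 0 and AMD1P3 at no more than 0.14 TPM, though reads could have been shared between such copies.

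SRM and SMS, the aminopropyltransferases, were lower than in shCON by less than 1.5-fold. SRM (ENSG00000116649, chromosome 1, 11054584 to 11060024, minus strand) stood at 174, 146 and 140.1 TPM in shCON, shUSP16#1 and shUSP16#2, changes of -0.26 and -0.31. Centred, these were -0.09 and 0.05. SMS (ENSG00000102172, chromosome X, 21940573 to 21994835, plus strand) stood at 164, 115 and 115 TPM, changes of -0.50 and -0.51. Under shUSP16#1 SMS was at 70.4% of the control, and the hairpin libraries were nearly level. All 4 synthesis enzymes thus had negative changes under both hairpins, as did 57.2% of all tested genes, and 2 of the 4 passed the rule. Centred, 3 of the 4 were negative under both and 1 passed, ODC1.

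Of the catabolic enzymes neither passed the rule, and both stood at a higher level under shUSP16#1 than under shUSP16#2. SMOX (ENSG00000088826, chromosome 20, 4120980 to 4187747, plus strand) stood at 37.8 TPM in shCON, against 81.1 TPM with shUSP16#1 and 52 TPM with shUSP16#2. Both hairpin libraries lay above the control, by 2.14-fold and 1.37-fold, changes of 1.08 and 0.45. Centred, these were 1.25 and 0.82, past the threshold under both. SAT1 (ENSG00000130066, chromosome X, 23783173 to 23786226, plus strand) stood at 115, 143 and 99 TPM. Its changes of 0.31 and -0.21 had opposite signs, with shCON between the hairpin libraries, and centred they were 0.49 and 0.15.

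AZIN1, the antizyme inhibitor, fell under both hairpins while the antizymes did not. AZIN1 (ENSG00000155096, chromosome 8, 102826357 to 102893864, minus strand) stood at 123 TPM in shCON, against 62.9 TPM with shUSP16#1 and 52.5 TPM with shUSP16#2. The changes were -0.95 and -1.21, and the centred ones -0.78 and -0.84. The gene overlaps the antisense gene AZIN1-AS1, which was at 5.55, 8.47 and 5.98 TPM. No source used here says that counting used strand, so reads of this pair cannot be told apart.

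OAZ1 (ENSG00000104904, chromosome 19, 2269509 to 2273490, plus strand) stood at 1678, 1679 and 1916 TPM in shCON, shUSP16#1 and shUSP16#2. The changes were 0.00 and 0.19. OAZ2 (ENSG00000180304, chromosome 15, 64687573 to 64703281, minus strand) stood at 127, 116 and 125 TPM, changes of -0.13 and -0.02. Their levels summed to 1805, 1794 and 2040 TPM. Centred, OAZ1 was at 0.17 and 0.56 and OAZ2 at 0.04 and 0.34, all on the positive side.

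Ratios between genes within a library do not depend on a factor common to all its genes, but they can move with GC content. The ratio of OAZ1 to ODC1 was 4.79 in shCON, against 9.76 with shUSP16#1 and 13.8 with shUSP16#2. That of OAZ1 to AZIN1 was 13.7, 26.7 and 36.5. The ratio of ODC1 to AZIN1 stood at 2.86, 2.74 and 2.65 in the same libraries. Among the other members, OAZ1 to OAZ2 was 13.2, 14.5 and 15.3, and SRM to SMS was 1.06, 1.26 and 1.22. With the GC trend removed, as described with the GC plot, OAZ1 over AZIN1 was 1.28 and 1.44 times its shCON value under shUSP16#1 and shUSP16#2, against 1.93 and 2.64 times from log2(TPM + 1) as deposited. OAZ1 over ODC1 was 1.59 and 2.14 times its shCON value, against 2.03 and 2.87 times. ODC1 over AZIN1 was 0.81 and 0.67 times its shCON value, against 0.95 and 0.92 times, so its steadiness held only as deposited. With GC content from the transcript nearest the listed length, chosen after seeing the data, OAZ1 was at -0.18 and -0.05. AZIN1 was at -0.63 and -0.77 on that scale, so OAZ1 over AZIN1 moved further than with the longest transcript. The ratios describe transcripts, not proteins.

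ODC1 to SRM was 2.01 in shCON, against 1.18 with shUSP16#1 and 0.992 with shUSP16#2, so ODC1 was the more abundant in shCON and level with SRM under shUSP16#2. The ratio of ODC1 to SMOX was 9.27, 2.12 and 2.67, and that of AMD1 to SMOX was 1.14, 0.325 and 0.295. SAT1 to SMOX was 3.04, 1.76 and 1.90. The 4 synthesis enzymes summed to 732 TPM in shCON, against 459 TPM with shUSP16#1 and 409 TPM with shUSP16#2. The 2 catabolic enzymes summed to 153, 224 and 151 TPM, which gives a synthesis to catabolism ratio of 4.79, 2.05 and 2.71. Without ODC1 the synthesis enzymes summed to 382, 287 and 270.2 TPM. ODC1 held 47.9%, 37.5% and 34.0% of the synthesis sum. Several of these pairs differ widely in GC content. With the GC trend removed, the log2 change of ODC1 over SRM was -0.36 and -0.55 in place of -0.76 and -1.01, and that of AMD1 over SMOX was -0.96 and -0.68 in place of -1.78 and -1.89. The change of ODC1 over SMOX was -1.72 and -1.31 in place of -2.10 and -1.78.

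**Figure D3:**
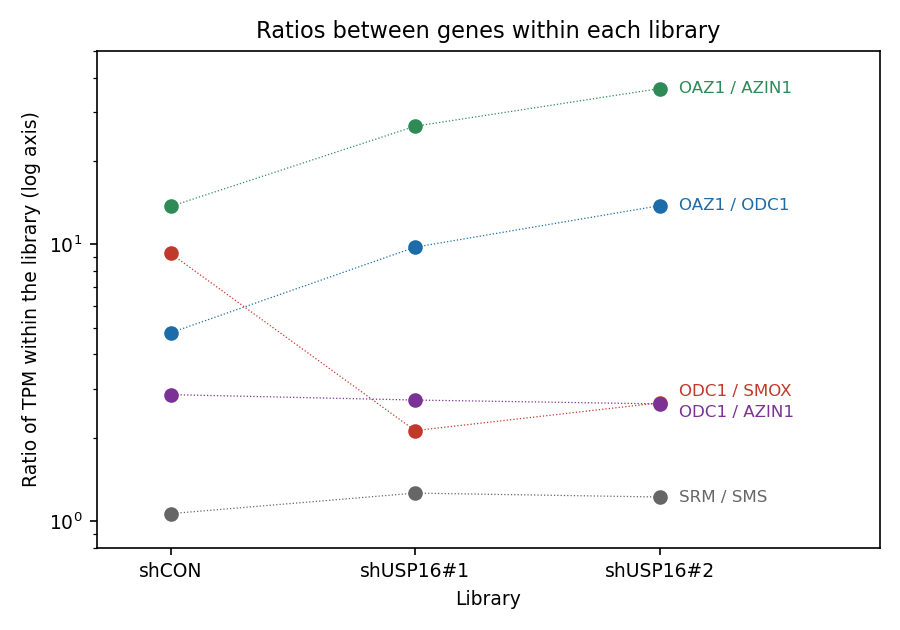
Ratios of TPM between 2 polyamine genes within each library (vertical log axis), for shCON, shUSP16#1 and shUSP16#2, 1 library each, with dotted lines that only join points of 1 ratio. With TPM as deposited, OAZ1 over ODC1 runs from 4.79 to 13.8 and OAZ1 over AZIN1 from 13.7 to 36.5. On that scale ODC1 over AZIN1 lies between 2.65 and 2.86.

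The changes of all tested genes moved with the GC content of their longest GENCODE transcript. The genes were ordered by GC content into 10 bands. In the poorest band, which holds AMD1 (37.7% GC), the medians were -0.60 and -1.05, and 50.5% of the genes fell under both hairpins. In the richest band, which holds SRM (63.7% GC), the medians were 0.24 and 0.22, and 1.88% fell. The part of GC content in the changes was not tested.

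ODC1 (51.2% GC) lies in a band with medians of -0.16 and -0.34, in which 14.1% of the genes fell. With the GC trend removed, an alternative chosen with earlier results of these data known, ODC1 was at -1.01 and -1.39 and AZIN1 (42.3% GC) at -0.70 and -0.83. Both still passed the rule. These values keep the overall medians of -0.17 and -0.37, which were added back. AMD1 was at -0.25 and -0.76 and no longer passed the rule, whereas SRM was at -0.65 and -0.84 and passed it. Without the medians added back, ODC1 would still pass, but AZIN1 and SRM would not. SMOX (61.0% GC) was at 0.71 and -0.08, and OAZ1 (61.2% GC) at -0.34 and -0.29, negative values where the deposited TPM gave none. Without the medians added back, OAZ1 would be negative only under shUSP16#1, and SMOX positive under both. With the GC content of the transcript nearest the listed length, chosen after seeing the data, OAZ1 was at -0.18 and -0.05.

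**Figure D4:**
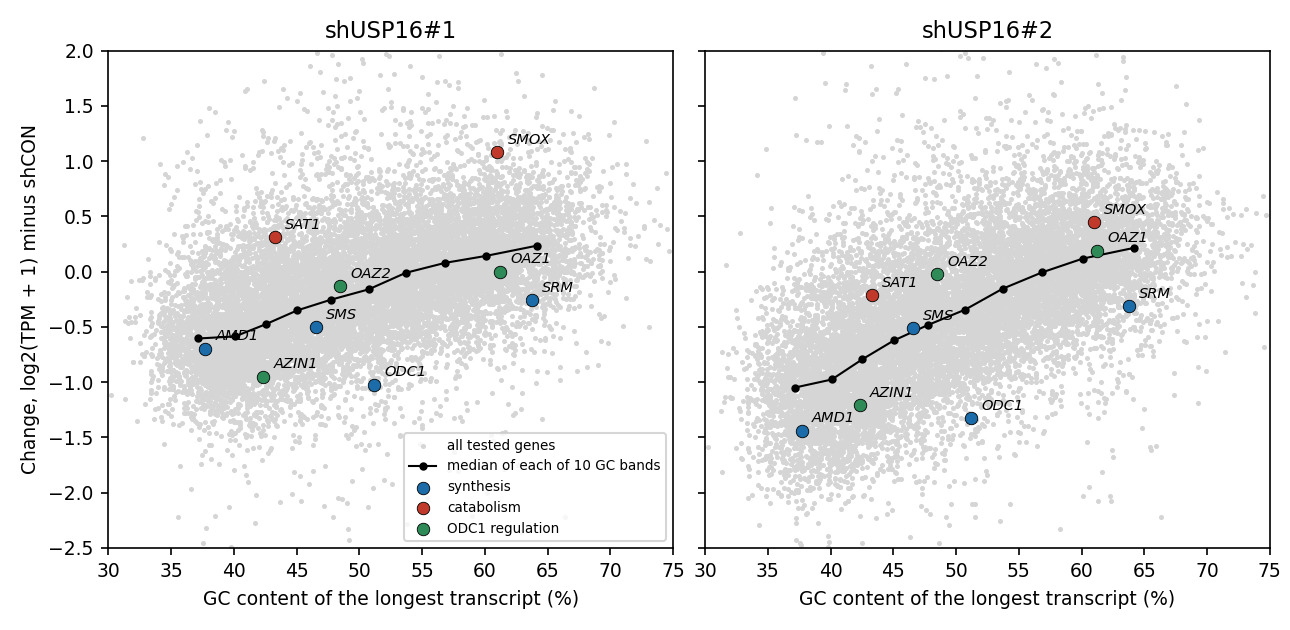
Change as log2(TPM + 1) minus shCON (vertical axis) against GC content of the longest transcript in percent (horizontal axis), under each hairpin, for the tested genes with a transcript (grey), the median of each of 10 GC bands (black) and the polyamine genes by role. The median runs from -0.60 to 0.24 under shUSP16#1 and from -1.05 to 0.22 under shUSP16#2, with ODC1 and AZIN1 below it, SMOX above it, and 226 genes outside the axes.

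The neighbouring genes of the pathway are given by list, in counts too small to set apart from the background. Of all tested genes, 20.8% fell and 4.05% rose. Centred, these shares were 11.2% and 9.74%, and with the GC trend removed 12.5% and 2.34%. Of further catabolic and regulatory genes, 5 of 6 were tested, 0 fell and 1 rose. This was AZIN2, a relative of AZIN1, at 1.9 TPM in shCON, against 3.35 TPM with shUSP16#1 and 3.44 TPM with shUSP16#2, changes of 0.58 and 0.61. AZIN2 stood exactly at the threshold under shUSP16#1, and with the GC trend removed it was at 0.44 and 0.39 and no gene of the list passed. These values keep the overall medians, and without the medians added back AZIN2 would pass. PAOX, a catabolic gene, stood at 1.01 TPM in shCON, against 1.99 TPM with shUSP16#1 and 1.93 TPM with shUSP16#2. Its changes of 0.57 and 0.54 lay just below the threshold. Centred, 3 rose, AZIN2 and the catabolic genes PAOX and SAT2. NQO1, a quinone reductase that also protects ODC1 from ubiquitin-independent degradation, was the most abundant of the list at 106, 112 and 145 TPM.

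Of the genes that supply arginine and ornithine, 8 of 10 were tested, 3 fell and 1 rose. OAT, which converts ornithine to glutamate semialdehyde and back, stood at 70.1, 45.2 and 36.5 TPM in shCON, shUSP16#1 and shUSP16#2, changes of -0.62 and -0.92. The cationic amino acid transporter SLC7A1 stood at 25.8, 15.5 and 13.5 TPM, changes of -0.70 and -0.89. Its relative SLC7A2 was low, at 2.78, 0.93 and 0.54 TPM, changes of -0.97 and -1.30. ASS1, an enzyme of arginine synthesis, was the most abundant of the list and rose from 115 TPM to 185 and 173 TPM, changes of 0.68 and 0.58, exactly at the threshold under shUSP16#2. Centred, 1 gene fell, SLC7A2, and ASS1 rose. With the GC trend removed, SLC7A1 and SLC7A2 fell and 0 rose, with OAT at -0.26 and -0.35 and ASS1 at 0.44 and 0.22. Without the overall medians added back, SLC7A2 would not pass. ASS1 would then pass under shUSP16#1 and lie about at the threshold under shUSP16#2.

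Of the methionine and methylthioadenosine salvage genes, 8 of 9 were tested, 1 fell and 0 rose. ENOPH1, a salvage enzyme, stood at 34 TPM in shCON, against 17.6 TPM with shUSP16#1 and 11.8 TPM with shUSP16#2, changes of -0.92 and -1.46. AHCY, which hydrolyses S-adenosylhomocysteine, was the most abundant at 354, 382 and 377 TPM. The list's medians were -0.33 and -0.79, beside -0.17 and -0.37 for all tested genes. The list had a median GC content of 43.8%, in a band whose medians were -0.35 and -0.62. With shUSP16#2 alone, 5 of the 8 were lower past the threshold, as were 38.5% of all tested genes. ENOPH1 fell also when centred and with the GC trend removed.

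Hypusine, a residue made from spermidine, is carried by the translation factor EIF5A and its relative EIF5A2. All 4 genes of this list were tested, 1 fell and 0 rose. EIF5A2 stood at 7.53, 3.65 and 3.79 TPM in shCON, shUSP16#1 and shUSP16#2, changes of -0.88 and -0.83. It passed neither when centred, at -0.70 and -0.46, nor with the GC trend removed, at -0.45 and -0.10. EIF5A was far more abundant, at 1377, 1240 and 1062 TPM, and did not pass the rule. DHPS, which makes the first step of hypusine, was at 88.4, 116 and 110 TPM and passed no threshold.

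Of the polyamine transport genes, 4 of 8 were tested, 2 fell and 0 rose, beside 20.8% and 4.05% of all tested genes. ATP13A3, a polyamine transporter of the P5B family, stood at 33.7 TPM in shCON, against 15 TPM with shUSP16#1 and 8.62 TPM with shUSP16#2, changes of -1.12 and -1.85. The vesicular polyamine transporter SLC18B1 stood at 8.57, 5.04 and 3.84 TPM, changes of -0.66 and -0.98. SLC18B1 did not pass when centred, at -0.49 and -0.62, or with the GC trend removed, at -0.30 and -0.46, while ATP13A3 passed in both. ATP13A2, a lysosomal polyamine exporter, was at 26.3, 30.7 and 32.9 TPM and passed no threshold. SLC3A2, the heavy chain of amino acid exchangers, was the most abundant at 293, 317 and 371 TPM.

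**Figure D5:**
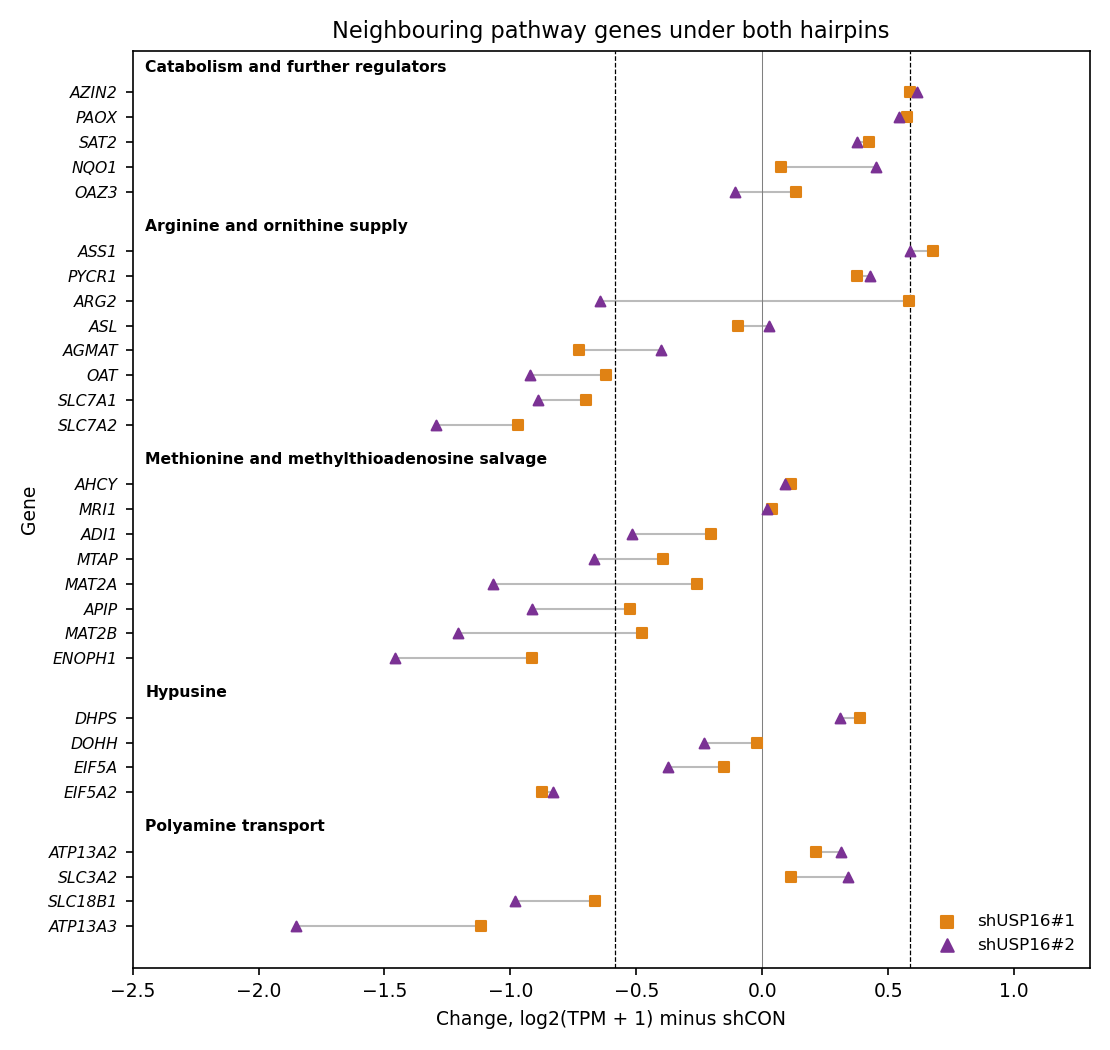
Change as log2(TPM + 1) minus shCON (horizontal axis) of each tested gene of the 5 pathway lists, under shUSP16#1 (square) and shUSP16#2 (triangle), with dashed lines at 1.5-fold. ATP13A3 and ENOPH1 reach -1.85 and -1.46 under shUSP16#2, while ASS1 and AZIN2 lie to the right at 0.58 to 0.68.

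The table annotates 56 genes to terms that name polyamine, spermidine, spermine or putrescine, of which 21 were tested, 5 fell and 1 rose. These shares of 23.8% and 4.76% lay near the 20.8% and 4.05% of all tested genes. The genes that fell were ODC1, AMD1, AZIN1, EIF5A2 and HNRNPD, an RNA-binding protein at 357, 186 and 169 TPM with changes of -0.94 and -1.08, and the one that rose was AZIN2. Centred, 3 fell (ODC1, AZIN1 and HNRNPD) and 4 rose (AZIN2, PAOX, SAT2 and SMOX). With the GC trend removed, 3 fell (ODC1, AZIN1 and SRM) and 0 rose, with HNRNPD at -0.49 and -0.38. Leaving out the 9 members, 12 of 47 were tested, 2 fell and 1 rose, and with the GC trend removed 0 fell and 0 rose. Without the overall medians added back, AZIN2 would rise. The medians of these 12 genes, 0.07 and 0.13, lay above those of all tested genes. Their median GC content was 54.8%, in a band whose medians were -0.01 and -0.15.

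The pattern of ODC1 was compared with that of 2339 other protein-coding genes whose mean reached 50 TPM, by the Euclidean distance of the pair of changes. HMGB2, a chromatin protein, was nearest at a distance of 0.0345 on the log2 scale, with 161, 77.8 and 64.8 TPM in shCON, shUSP16#1 and shUSP16#2. NPM1, the nucleolar protein nucleophosmin, followed at 0.0452 with 1772, 848 and 694 TPM. ZNF207, a spindle checkpoint protein, came next at a distance of 0.054 with 102, 50.9 and 38.8 TPM. Among the members AZIN1 lay nearest to ODC1 at 0.140 and AMD1 next at 0.345, and SMOX was farthest at 2.75. All distances here are from changes as deposited. With the GC trend removed, ODC1 was at -1.01 and -1.39. AZIN1 was then at -0.70 and -0.83, SRM at -0.65 and -0.84 and AMD1 at -0.25 and -0.76. HMGB2 was at -1.09 and -1.32, NPM1 at -0.80 and -0.99 and ZNF207 at -0.60 and -0.72. These values depend on the transcript used for GC content. As means of both hairpins, ODC1, HMGB2, NPM1 and ZNF207 were at -1.20, -1.21, -0.89 and -0.66. With the transcript nearest the listed length, chosen after seeing the data, these means were -1.04, -0.69, -0.71 and -0.99. The order of nearness was not recomputed on that scale. MYC, named here because ODC1 is among its known targets, stood at 238, 209 and 173 TPM, changes of -0.19 and -0.46, or -0.02 and -0.09 when centred. With the GC trend removed, MYC was at -0.33 and -0.69. These are transcript levels and not c-Myc protein.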

How the data were processed

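The authors sequenced total RNA of PC3 cells, with libraries made by an Illumina TruSeq RNA kit and sequenced and processed through the Majorbio platform. The deposited values are TPM per gene. The submitters' processing notes name CASAVA, HISAT2 and the build hg19, with no role or order, and the quantification tool and annotation are not given in the sources used here. The deposited table held 60930 entries. Of these, 1211 repeated a name and were left out (the copy with the highest mean was kept). It also repeated 3 TPM columns, and the repeats were left aside. TPM keeps no record of depth, so no interval can be given.

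Genes whose mean over the 3 libraries reached 1 TPM were tested, changes were log2(TPM + 1) minus shCON, and a gene was called at 1.5-fold under both hairpins. Coordinates and transcript GC content came from GENCODE release 29 (GRCh38) by gene ID, which differs from the build in the notes, and the table itself holds no coordinates. To remove the GC trend, genes were binned by GC content (50 bins), and the median change of the bin was replaced by that of all genes. Alternative settings were centring on the median, a pseudocount of 0.1, no minimum, a minimum of 5 TPM, a 2-fold threshold, each hairpin alone and GC removal. GC content from the transcript nearest the listed length was chosen after seeing the data. The rule for named genes took the 9 members, USP16, MYC, the genes of each list that passed, its most abundant gene and the 3 genes nearest ODC1. ODC1-DT, pseudogenes, AZIN1-AS1, ATP13A2, DHPS, PAOX, SAT2, KRT19 and EPCAM fall outside it, chosen after seeing their values. The members and lists were chosen with earlier results of these data known. One marker gene is not reported here. The scripts were tested on simulated data. Python 3.11.15, numpy 2.4.6, pandas 2.3.3 and matplotlib 3.10.9 were used.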

Additional observations from a re-analysis of the deposited data

Results flagged for a closer look

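SAT1, the spermidine/spermine acetyltransferase, had changes of opposite sign under the hairpins. It stood at 115 TPM in shCON, against 143 TPM with shUSP16#1 and 99 TPM with shUSP16#2, and its change under shUSP16#2 lay -0.53 from that under shUSP16#1 on the log2(TPM + 1) scale. Each hairpin had 1 library, so the difference was not tested. Centred on the median change over the tested genes, they were 0.49 and 0.15, which share a sign.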

How the results depend on the processing

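Of the 9 polyamine genes, 3 fell and 0 rose under both hairpins, and their median of the mean change was -0.29. At 2-fold 1 fell. When changes were centred on the median over the tested genes, 1 rose and the median was -0.017, while removal of the GC trend gave a median of -0.41, or -0.27 with GC content from the transcript nearest the listed length, chosen after seeing the data. Leaving out either hairpin can only keep or raise these counts, since the rule needs both. It left 3 lower and gave 0 to 1 higher (1 without shUSP16#2, SMOX). The median was then -0.31 to -0.26. Which genes fell changed with the scaling, from ODC1, AMD1 and AZIN1 to ODC1 and AZIN1 when centred and to ODC1, SRM and AZIN1 with the GC trend removed. The calls with the GC trend removed keep the overall medians. Without these medians AZIN1, SRM, SLC7A2, ENOPH1 and ATP13A3 would not pass. AZIN2 would then rise, and ASS1 would lie about at the threshold under shUSP16#2. Of the 13637 tested genes, 2841 fell and 552 rose, against 1526 and 1328 when centred and 3394 and 740 with a pseudocount of 0.1. With the GC trend removed these were 1661 and 311 of 13296, and with a minimum of 5 TPM 1967 and 344 of only 9301 genes. Of the 28 named genes, centring moved 21 and removal of the GC trend moved 20 by more than the spread between the hairpins. No gene called as deposited changed the sign of its mean change. Among genes not called, OAZ1, AHCY and SLC3A2 turned negative with the GC trend removed, and OAZ2 and EIF5A turned positive when centred. The negative signs also rest on the overall medians kept in these values. Without the medians, SLC3A2 would stay positive and OAZ1 and AHCY would lie near 0. The cause of these shifts was not tested. No paired analysis was possible because every group holds a lone library. Depth is unknown, so the precision of single values is not known.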
